A study of Glycine max with 8 samples.

Results

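The comparison asked how the transcript response of soybean leaves to a second drought differed from their response to a first drought, when each drought was set against its own watered leaves. For each transcript the change from the re-watered leaves (WT2) to the second drought (DR2) was taken on the log2 scale, and the change from the well-watered leaves (WT1) to the first drought (DR1) was subtracted from it, giving (DR2 - WT2) - (DR1 - WT1). All 8 arrays and all 60386 transcripts of the deposited table of normalized intensities entered 1 model. Of the 60386 transcripts, 4420 were called higher and 6037 lower in the second response, where a call needs an adjusted p below 0.05 and a difference over 4-fold (2 in log2 units). The contrast was then computed without WT2 replicate 1 and without WT2 replicate 2.

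Seedlings of the soybean (Glycine max) cultivar Daepoong were grown for 7 days. WT1 plants were then kept watered while DR1 plants had water withheld for 4 days by the protocol and the paper, although the labels of the DR1 samples say 4 hours, and the primary leaves of both were sampled. WT2 plants were DR1 plants that had been watered again for 1 day, and DR2 plants then went without water for another 4 days, so that WT2 leaves were taken before the second drought and not beside it. Each condition had 2 independent biological replicates of leaves pooled from several seedlings, and all samples shared the cultivar and the growth conditions.

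DR2 plants were older than DR1 plants and had been through a drought and a re-watering, and no sample came from plants of the DR2 age that had never been stressed. The first drought and its watered leaves shared a slide, as did the second drought and its own. Each drought was therefore compared with its watered leaves within a slide, but the slide, the plant age, the cycle and the earlier drought cannot be told apart in the difference between the responses. Of the leaf markers, the 13 light-harvesting transcripts had a median intensity of 133800 units at WT1 and 109600 at WT2. The only entry matched as a RuBisCO small subunit marker had 1163 units at WT1 and 652.5 at WT2. Globin, a marker of nodule and root, had 0 annotated members, so it could not be read. In whole leaves, fewer cells of a type and less RNA per cell cannot be told apart.

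Drought raises abscisic acid (ABA), the hormone that closes stomata and turns on protective genes. Receptors that bind ABA block phosphatases of type 2C, which frees kinases that activate ABA-responsive transcription factors. Downstream genes encode late embryogenesis abundant (LEA) proteins and dehydrins, which protect cells that lose water, and enzymes that make protective sugars, while genes of photosynthesis, water channels and cell growth are commonly turned down. Plants that meet a second drought can respond more strongly, less strongly or in another way than at the first, which is often called stress memory.

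Array quality differed between the conditions. Between 55.2% and 57.3% of the probes were well above background on the DR2 arrays, and between 61.4% and 65.2% on the other 6. No spot was saturated, with a count of 0 on every array. The median absolute difference between replicate arrays, on the log2 scale, was 0.381 at DR2 and 0.353 at WT2, against 0.255 at WT1 and 0.138 at DR1. Whether the lower detection at DR2 had a part in the differences was not tested. Because the 2 WT2 arrays differed in transcripts that the first drought had induced, values without each of them stand beside many of the results below.

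The fitted second response was larger in size for most transcripts. The change from WT2 to DR2 exceeded the change from WT1 to DR1 in size for 45620 transcripts (75.5%). Replicate arrays lay further apart at DR2 and WT2 than at DR1 and WT1, and the part of that spread in these sizes was not tested. Over all transcripts the SD of the change was 1.17 at the first drought, 2.05 at the second and 1.6 for the difference between them, on the log2 scale. Both changes correlated across transcripts with Pearson's r = 0.632 and Spearman's rho = 0.589, a description over transcripts, which are not independent replicates. The difference lay within 2-fold for 31277 transcripts (51.8%).

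The 4420 transcripts called higher are 7.32% of those tested and the 6037 called lower are 10.0%, so that 42.3% of all called differences were higher. Their median differences were 2.67 and -2.71, and the median SE over all transcripts was 0.396. They belonged to 3891 and 5469 loci and included 422 and 351 unique-exon entries, extra probes for an exon that sets a transcript apart from the other splice forms of its gene. At the threshold the nearest transcripts lay at 2.0001 and 1.9998 among the higher and at -2.0002 and -1.9999 among the lower. Another 6065 higher and 6182 lower transcripts passed the adjusted p with a difference between 2-fold and 4-fold. Scaling each array to its 75th percentile in place of quantile normalization gave 5351 higher and 4964 lower calls, a share of 51.9% higher. The median difference of all transcripts was then 0.279, against -0.0163 in the main fit.

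**Figure D1:**
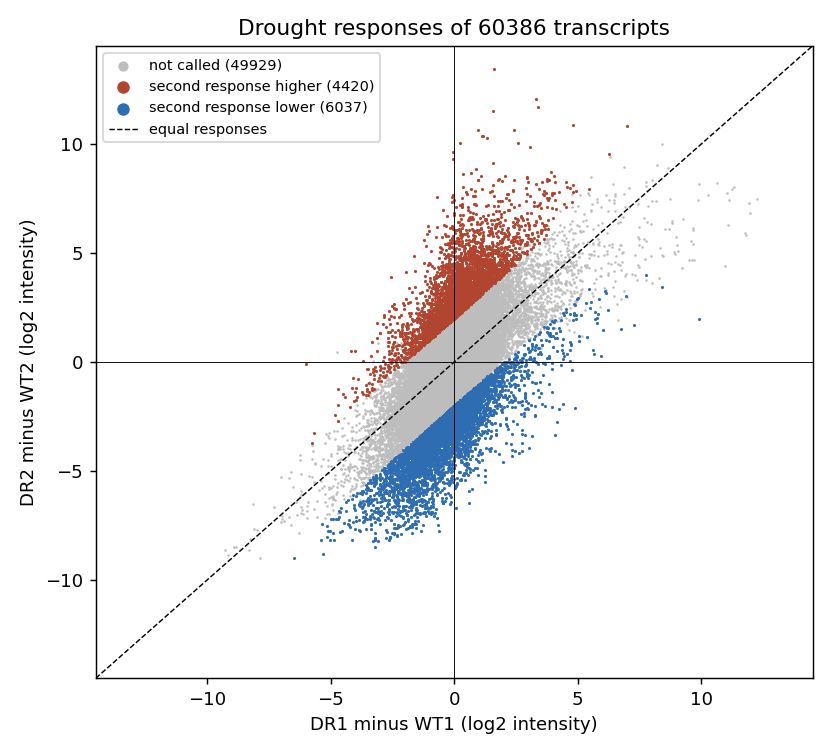
Change from WT1 to DR1 (horizontal axis, log2) against change from WT2 to DR2 (vertical axis, log2) for each of 60386 transcripts, with called differences coloured and the dashed line marking equal changes. The 4420 transcripts called higher lie above the line and the 6037 called lower lie below it, and most of either colour lie near the zero of the horizontal axis.

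Most calls were also made with either WT2 array left out. Such a fit leaves 1 WT2 array, so the disagreement between the WT2 arrays no longer enters the estimated spread. Calls kept or gained there are a description. Of the 4420 higher calls 3898 were also called without WT2 replicate 1 and 3631 without WT2 replicate 2, and 3280 (74.2%) were called in both cases. Of the 6037 lower calls the numbers were 5623, 5103 and 4800 (79.5%). The sign of the difference turned in 0 called transcripts in either case. In total, 4909 transcripts (8.13%) were higher and 6534 (10.8%) lower without replicate 1, and 4028 (6.67%) and 5721 (9.47%) without replicate 2. With each of the 8 arrays left out in turn, 2816 higher and 4211 lower calls were made every time.

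Signal near background limits part of the values. A transcript is called dim in a condition where neither array had any probe of it well above background. Among the called transcripts, 2981 of the higher (67.4%) and 3784 of the lower (62.7%) were well above background on both arrays of all 4 conditions. The floor of an array is the lowest value among transcripts with every probe well above background there, between 24.55 units on DR1 replicate 1 and 50.97 on DR2 replicate 2. For 194 higher and 1571 lower calls a lower bound on the size of the difference comes from raising the dim values to the floor, and at that bound 151 and 579 remained past 4-fold, so that their fitted differences can overstate the size. For another 979 higher and 81 lower calls a dim condition sits on the side of the smaller change, so that the size of the difference has no bound. Where 2 or more probes of a called transcript were detected, all probes had the same sign in 3115 of 3122 higher and 5167 of 5175 lower transcripts.

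Most called transcripts had not been called at the first drought, but neither had most of all transcripts. Of all transcripts, 3.57% were called higher at DR1 than at WT1 and 3.89% lower. Of the higher calls, 3333 (75.4%) were not called at DR1 against WT1 and were higher at DR2 than at WT2, with medians of 0.381 and 3.22 for the changes. Of the lower calls, 4289 (71.0%) were not called at DR1 and were lower at DR2 than at WT2, with medians of -0.422 and -3.27. These classes use the same arrays as the difference, so their counts are a description.

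Transcripts that went further in the direction of the first drought were fewer. There were 263 called up in both droughts and higher in the second response, and 577 called down in both and lower in the second. In the opposite case, 27 of the lower calls were up in both droughts with a smaller rise in the second. Likewise, 5 of the higher calls were down in both with a smaller fall. Only 51 of the 3331 transcripts called in both droughts changed in opposite directions, 13 from down to up and 38 from up to down. Among the lower calls, 242 were called up at the first drought alone, and among the higher calls, 145 were called down at the first drought alone. A further 661 higher and 864 lower differences came from changes called in neither drought.

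**Figure D2:**
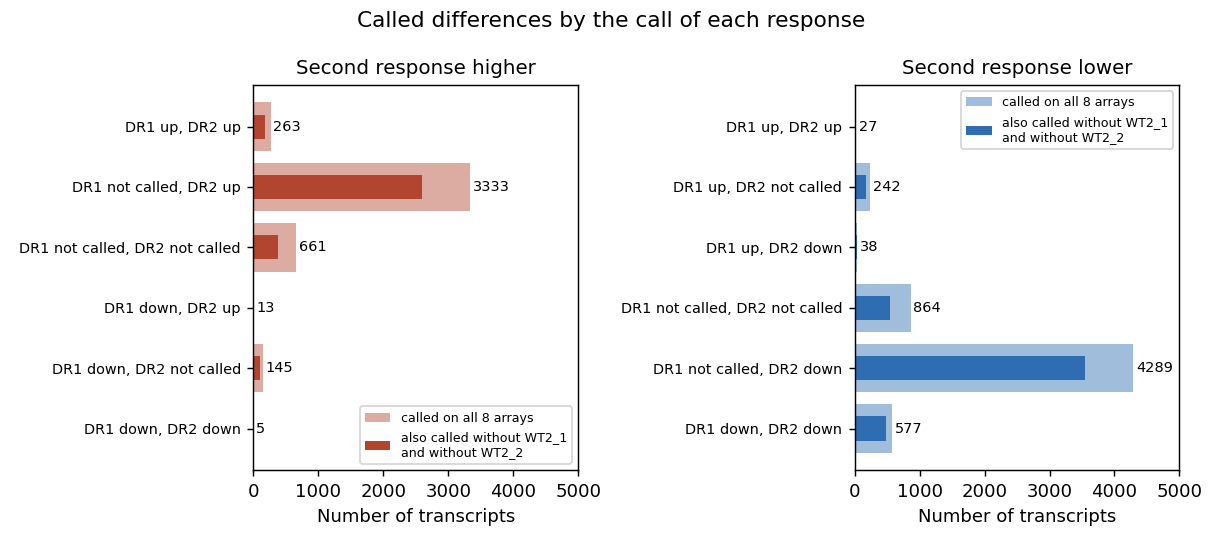
Number of transcripts (horizontal axis) called higher (left panel) or lower (right panel) in the second response, by their call at DR1 against WT1 and at DR2 against WT2. Pale bars count calls on all 8 arrays and dark bars those also called without each WT2 array, and the longest bars are the 3333 and 4289 transcripts not called at DR1.

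At the first drought itself 2153 transcripts (3.57%) were called higher and 2351 (3.89%) lower, and at the second 7619 (12.6%) and 8983 (14.9%). Of the 7619 that rose in the second drought 3609 (47.4%) were higher in the second response, and of the 8983 that fell 4904 (54.6%) were lower. The shares over all transcripts were 7.32% and 10.0%. Because the change from WT2 to DR2 is a term of the difference, these overlaps are partly built in and are a description. Of the 2153 called higher at the first drought, 12.2% were higher and 14.3% lower in the second response. For the 2351 called lower the shares were 6.93% and 24.5%. Between the watered references the calls were fewer, 208 transcripts (0.344%) being higher at WT2 and 25 (0.0414%) lower. Of the 4420 higher differences, 3272 passed the same threshold for DR2 above DR1, as did 6.64% of all transcripts, and of the 6037 lower ones 4022 passed it for DR2 below DR1, as did 8.24% of all. Both of these comparisons cross the slides and share arrays with the difference. In 4329 higher and 5274 lower calls the change between the droughts made up more of the difference than the change between the watered leaves, and in 91 higher (2.06%) and 763 lower (12.6%) calls it was the other way round.

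The WT2 arrays disagreed on transcripts that the first drought had induced. Over the 2153 of them, WT2 replicate 1 lay a median of 1.07 above WT1 and WT2 replicate 2 a median of 0.109 above it, on the log2 scale. Their median difference between the responses was -0.335 on all arrays, 0.253 without replicate 1 and -0.853 without replicate 2, so its sign depends on that array. Over the 2351 transcripts repressed at DR1 the median was -0.685, and -0.922 and -0.477 without either array. For the gene lists in which most members were called up at DR1, the median is therefore also given without each WT2 array.

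**Figure D3:**
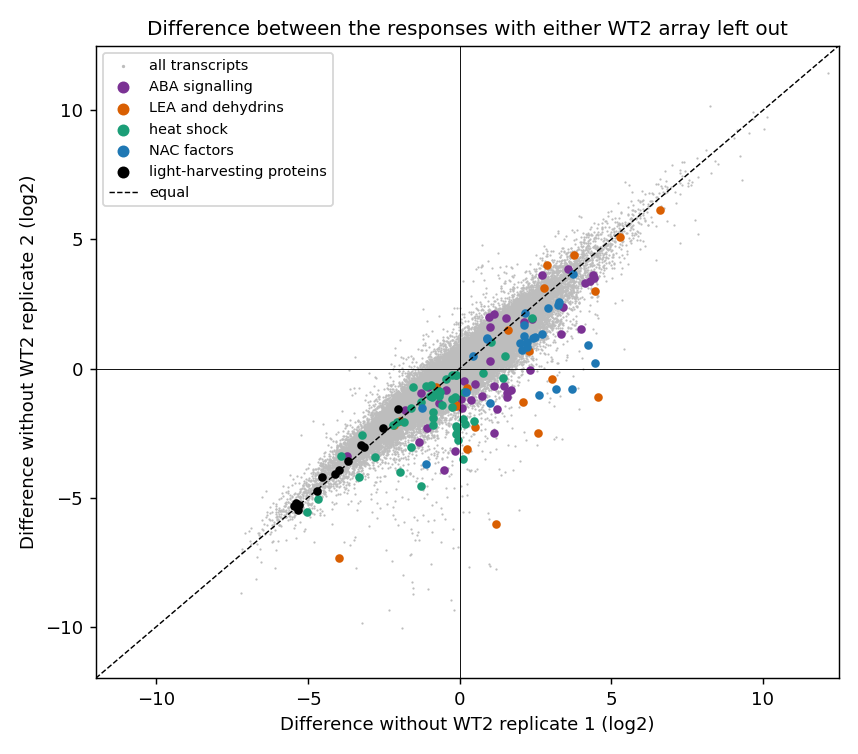
Difference between the responses on the log2 scale without WT2 replicate 1 (horizontal axis) and without WT2 replicate 2 (vertical axis), for all transcripts (grey) and for 5 gene lists (colours), with the dashed line marking equal values. Light-harvesting transcripts lie on the line near their medians of -4.11 and -4.07, whereas many ABA signalling, LEA, heat shock and NAC members lie below it.

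The highest differences among transcripts well above background in every condition were in transcripts that stayed low until the second drought. Glyma.08G235400-1 encodes a Kunitz inhibitor, a protein that blocks digestive proteases of insects and other attackers. Its intensity was 39.1 and 33.8 units on the WT1 arrays, 469.9 and 274 on the DR1 arrays, 60.4 and 29.9 on the WT2 arrays and 171241 and 189079 on the DR2 arrays. Both DR2 arrays stood far above the other 6 arrays, and the DR1 arrays lay above both watered groups. The difference was 8.75 ± 0.54 (SE; adjusted p = 0.000152, limma), from a rise of 3.30 at the first drought and of 12.05 at the second. Its neighbour in name, Glyma.08G235300-1, is of the same family and differed by 8.23 ± 0.40 (SE), with intensities of 26.2 and 33.8 units at WT1, 196 and 129 at DR1, 37.96 and 28.6 at WT2 and 52160.1 and 53565 at DR2.

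No domain name was given for the other 4 of the 6 highest in the sources used here. Glyma.04G035000-1 had intensities of 34.2 and 38.4 units at WT1, 36.4 and 34.3 at DR1, 29.7 and 29.6 at WT2 and 33963 and 16449 at DR2. It was at about the same low level on 6 arrays and higher on both DR2 arrays, and differed by 9.68 ± 0.47 (SE; adjusted p = 0.000113, limma). Glyma.15G211500-1 rose to 119576 and 81441 units at DR2 from between 75.02 and 361 on the other arrays, a difference of 8.98. Glyma.02G020900-1 reached 12571 and 6448 units at DR2 against 19.98 to 28.99 elsewhere, a fitted difference of 8.31. It had a probe well above background on every array, but its values on the 4 watered arrays were under the floor, so the size of this difference is uncertain. Glyma.10G045400-1 differed by 7.71 ± 1.00 (SE), with 36861 units on DR2 replicate 1 and 6034 on replicate 2, the widest spread of the 6. Glyma.01G217600-1, named after its values were seen as the highest of the whole table at 11.80, is outside this rule, which asked for signal well above background in all 4 conditions.

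The lowest differences included acid invertases, the enzymes that split sucrose into glucose and fructose. Glyma.05G056300-1 had 365 and 598 units on the WT1 arrays, 6714 and 9373 on the DR1 arrays, 1918 and 706 on the WT2 arrays and 92.7 and 142 on the DR2 arrays. The DR1 arrays were the highest and the DR2 arrays the lowest, and no conditions overlapped. The difference was -7.43 ± 0.69 (SE; adjusted p = 0.000406, limma), made of a rise of 4.09 at the first drought and a change of -3.34 at the second. Glyma.01G211000-1 gave 962 and 1838 units at WT1, 8809.8 and 13412 at DR1, 3322 and 2167 at WT2 and 161 and 188 at DR2, a difference of -6.98 ± 0.54 (SE), but 1 of its 3 probes was detected. All 5 entries with the invertase domain among the annotated transcripts, from 4 loci, were called lower, a family singled out after its values were seen. Their median of -6.89 was -4.12 when the probes were summarised from the scanner signal and -3.71 with 75th-percentile scaling.

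Glyma.08G295500-1, without a domain name, kept between 5324 and 8953 units on the first 6 arrays and had 81.3 and 74.95 at DR2, a difference of -7.08 ± 0.30 (SE). Glyma.17G153900-1, also without a name, went from 12401 and 13070 units at WT2 to 40.8 and 123 at DR2 and differed by -6.83. Glyma.07G015600-1 carries the Hpt domain of proteins that relay phosphate in cytokinin signalling. It had 513 and 389 units at WT1, 13999 and 12722 at DR1, 2697 and 1394 at WT2 and 135 and 1469 at DR2. DR2 replicate 2 overlapped the WT2 arrays while replicate 1 lay below all others, and the difference was -7.03 ± 1.31 (SE; adjusted p = 0.00509, limma). Glyma.14G038300-1, with a proteinase inhibitor domain (SQAPI), rose to 56816 and 77688 units at DR1 and fell to 1610.3 and 1352 at DR2, a difference of -6.80.

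**Figure D4:**
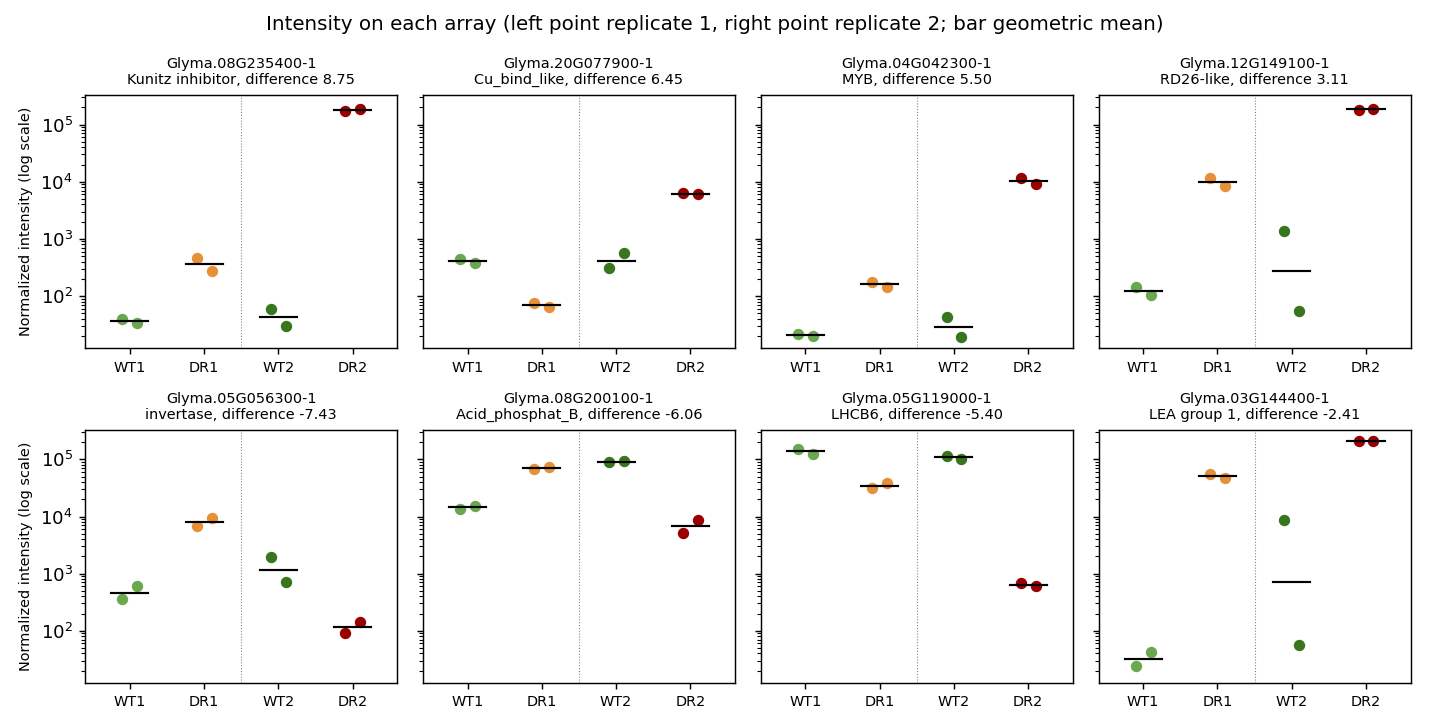
Normalized intensity (vertical axis, log scale) of 8 transcripts on each of the 8 arrays, with replicate 1 on the left, replicate 2 on the right and a bar at the geometric mean of each condition. The Kunitz inhibitor and the MYB transcript are high at DR2 alone, the invertase is highest at DR1 and lowest at DR2, and the WT2 replicates lie far apart for the RD26-like and LEA group 1 transcripts.

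Each class of response had its own leading member. Among those that fell at the first drought and rose at the second, Glyma.20G077900-1, with a plastocyanin-like copper-binding domain, had 438 and 384 units at WT1, 74.7 and 65.4 at DR1, 311 and 561 at WT2 and 6236 and 6205 at DR2. Its DR1 arrays were below both watered groups and its DR2 arrays above them, and the difference was 6.45 ± 0.42 (SE; adjusted p = 0.000153, limma). Glyma.01G093800-1, with a RING zinc finger of the kind found in ubiquitin ligases, changed by -3.13 at the first drought and changed by 1.80, not called, at the second, a difference of 4.93. Glyma.14G195000-1, an asparagine synthase, which makes the amino acid that carries nitrogen in legumes, decreased by 5.66 in the first drought and by 3.23 in the second, a difference of 2.43. The zinc-finger transcript Glyma.12G205700-1 rose by 5.51 and 2.46, a difference of -3.04, which was -2.01 without WT2 replicate 1 and -4.07 without replicate 2.

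Where neither drought alone was called, opposed smaller changes added up. Glyma.15G258800-1 had 1431 and 1548 units at WT1, 403 and 392 at DR1, 654 and 878 at WT2 and 3127 and 2244 at DR2. Its DR1 arrays lay below WT1 and its DR2 arrays above WT2, with no overlap between any conditions, and it differed by 3.71 ± 0.36 (SE; adjusted p = 0.00045, limma). Glyma.02G229900-1 changed by 1.81 and then by -1.92, a difference of -3.72. Both of its DR2 values were under the floor. Neither transcript had a domain name.

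Gene lists were read from domain names and Arabidopsis equivalents, which the sources gave for 3755 of the 60386 transcripts. Most of those had been listed by the study because they changed at DR1 or DR2 in these samples, so neither the direction nor the number called in a list is independent evidence, and the change at DR1 enters the difference with the opposite sign. Of the 3755, 439 (11.7%) were higher and 857 (22.8%) lower in the second response, with a median difference of -0.635, whereas over all transcripts the median was -0.0163. Counts in the lists are read beside these shares.

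**Figure D5:**
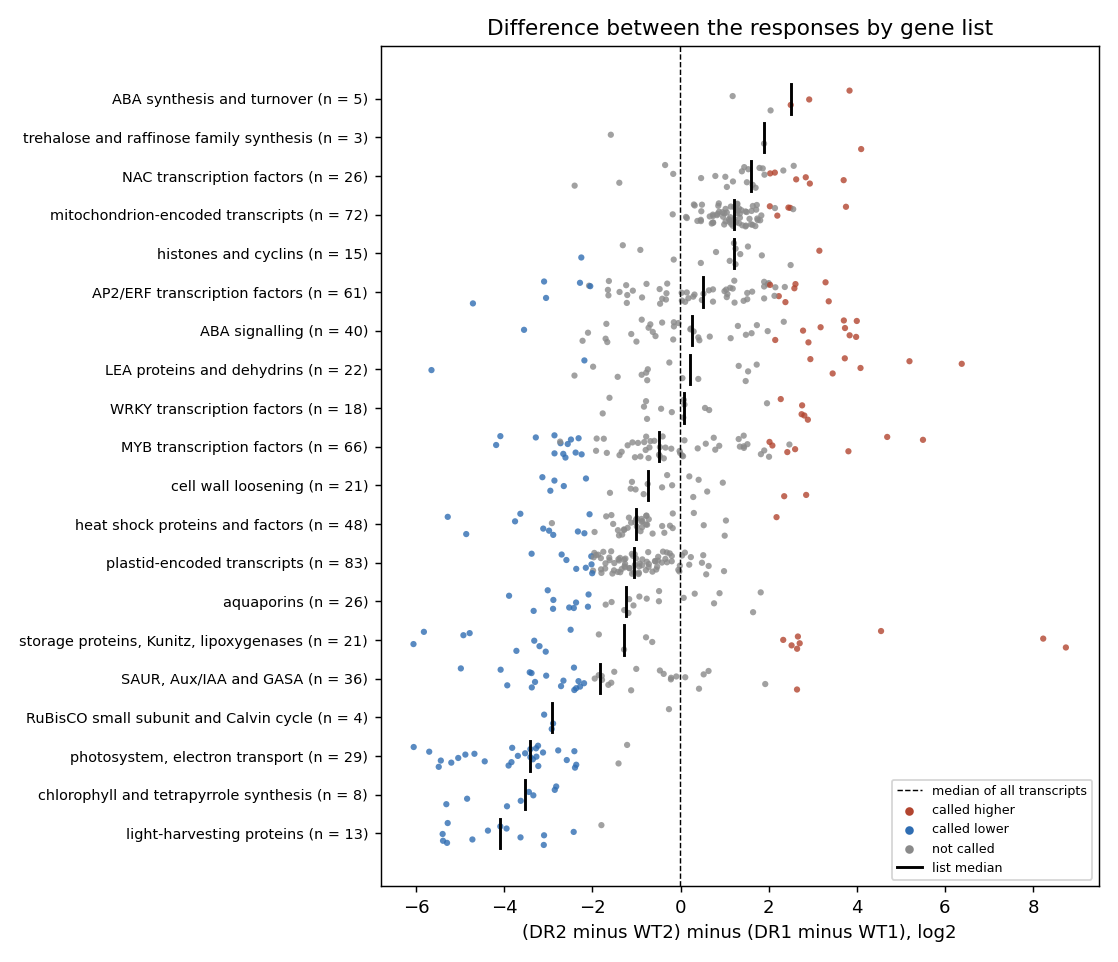
Difference between the responses (horizontal axis, log2) for every member of 20 gene lists, 1 list per row with its number of members, coloured by call, with a black bar at the list median and a dashed line at the median of all transcripts. The lists of photosynthesis transcripts sit at medians of -4.09 to -2.91, and ABA synthesis and turnover and NAC transcription factors at 2.50 and 1.59.

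Transcripts for ABA synthesis and turnover were higher in the second response in 3 of 5 cases and lower in 0, and the median was 2.50, with 3.29 without WT2 replicate 1 and 2.24 without replicate 2. Glyma.11G180800-1 resembles Arabidopsis ABA2, the dehydrogenase that turns xanthoxin into abscisic aldehyde, and had 8.87 and 10.4 units at WT1, 1838 and 818 at DR1, 145 and 24.1 at WT2 and 97609.7 and 118941 at DR2. It was dim at WT1, with both values under the floor, so that its fitted rise of 7.00 at the first drought is not a measured size and the difference of 3.84 ± 1.05 (SE; adjusted p = 0.0233, limma) has no bound, while the DR2 arrays lay 6.46 above the DR1 arrays. This call was lost under 6 of the 20 other settings in which it could be tested. Glyma.16G109300-1, similar to CYP707A1, which breaks down ABA, differed by 2.92, and Glyma.08G255400-1, similar to NCED5, a cleavage enzyme at the step that limits ABA synthesis, by 2.50 with WT1 dim. Glyma.08G176300-1, similar to NCED3, was not called at 1.18 ± 1.99 (SE), and its value was 3.94 without WT2 replicate 1 and -1.58 without replicate 2.

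In ABA signalling, 9 of 40 entries were higher, from 7 loci, and 1 was lower, with a median of 0.27 that was 1.12 without WT2 replicate 1 and -0.67 without replicate 2. All 40 were phosphatases, 39 with the PP2C domain and 1 related to it, and only clade A of that family is known to hold ABA signalling off in the absence of the hormone, so the list cannot speak for receptors or kinases. Glyma.14G195200-1 had 125 and 123 units at WT1, 718 and 666 at DR1, 191 and 102 at WT2 and 16603 and 7484 at DR2. Drought arrays were above watered arrays in both cycles and DR2 was above DR1, and the difference was 3.84 ± 0.59 (SE; adjusted p = 0.00234, limma). Glyma.02G228200-1 differed by 3.73 and Glyma.07G233000-1, which had not been called at DR1, by 3.71. The exception was Glyma.15G052300-2, which fell in both droughts and differed by -3.55 ± 0.61 (SE). It had 1 probe, and its 24.8 units on DR2 replicate 1 were under the floor, so this size is uncertain. The number lower rose from 1 to 5 when WT2 replicate 2 was left out.

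Of 22 LEA proteins and dehydrins, 6 were higher and 2 lower, 7 of these 8 with the LEA_2 domain, which the NHL membrane proteins of Arabidopsis also carry. The number higher was 10 without WT2 replicate 1 and 6 without replicate 2, the number lower 2 and 6, and the median of 0.22 turned from 1.84 without WT2 replicate 1 to -0.93 without replicate 2. Glyma.19G198700-1, with the LEA_2 domain, had 70.5 and 103 units at WT1, 170.2 and 141 at DR1, 58.5 and 42.7 at WT2 and 14081 and 4072 at DR2. The DR1 arrays lay above the WT1 arrays by under 4-fold and both DR2 arrays far above all others, a difference of 6.38 ± 0.74 (SE; adjusted p = 0.000826, limma). Glyma.03G201200-1, similar to the senescence-associated YLS9, differed by 5.20. In the other direction, Glyma.03G261400-1 had 91.1 and 84.1 units at WT1, 5318 and 5467 at DR1, 1049 and 101 at WT2 and 365 and 432 at DR2, and differed by -5.65 ± 1.24 (SE), a value that was -3.96 without WT2 replicate 1, its highest watered array, and -7.35 without replicate 2. The dehydrins Glyma.08G048900-1 at -1.43 and Glyma.04G009900-1 at 0.40 were not called. In the list of protective sugars, 1 of 3 trehalose-phosphate phosphatases, Glyma.04G119700-1, was higher (2 without WT2 replicate 1), with 1368 and 518 units at DR2 against 43.5 to 61.3 on the other arrays and a difference of 4.10.

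Of 48 heat shock transcripts, 10 (20.8%) were lower and 1 (2.08%) higher, with a median of -1.02. That median was -0.664 without WT2 replicate 1 and -1.52 without replicate 2. The share lower was near the 22.8% of all annotated transcripts. The list's median change was 3.02 at the first drought and 2.28 at the second. The number lower was 8 without WT2 replicate 1 and 20 without replicate 2, and the number higher 1 and 0. Glyma.18G094600-1, a small heat shock protein that keeps unfolding proteins from clumping, had 5609 and 3823 units at WT1, 45642 and 45069.5 at DR1, 14303 and 9938 at WT2 and 2835 and 3161 at DR2. Its DR1 arrays were above all others and its DR2 arrays below all others, and the difference was -5.29 ± 0.39 (SE; adjusted p = 0.000191, limma). Glyma.08G318900-1 of the same family differed by -4.87, and Glyma.01G238600-1, an HSP70 chaperone, by -3.76. Of the lower 10, Glyma.04G055400-1 and Glyma.06G055600-1 are DnaJ co-chaperones that fell in both droughts, so not every lower member had been induced. The only higher member was a heat shock factor, Glyma.05G151800-1, at 2.18.

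Among NAC transcription factors, 6 of 26 were higher and 0 lower. The median was 1.59, with 2.23 without WT2 replicate 1 and 1.02 without replicate 2, and the number called higher also depended on the WT2 array. Glyma.07G229100-1 is similar to Arabidopsis NAP, which drives leaf senescence there, and had 65.7 and 67.2 units at WT1, 614 and 405 at DR1, 136 and 84.6 at WT2 and 6214 and 6098 at DR2. All arrays of DR2 lay above all of DR1, which lay above all watered arrays, and the difference was 2.93 ± 0.43 (SE; adjusted p = 0.00184, limma). A second NAP-like transcript, Glyma.20G033300-1, differed by 2.84 and the ATAF1-like Glyma.14G152700-1 by 2.62. Among 18 WRKY factors, 5 were higher and 0 lower, 3 of them similar to WRKY40, a regulator of ABA and pathogen responses in Arabidopsis. Their leader, Glyma.04G061300-1, had 869.9 and 839 units at DR2 and 136 and 74.6 at DR1 but was dim at WT1, so its difference of 2.89 has no bound. The WRKY median was 0.08 and changed sign, at 0.55 without WT2 replicate 1 and -0.26 without replicate 2, and was -0.23 with the processed signal scaled to the 75th percentile.

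AP2/ERF factors, which include the dehydration-responsive DREB proteins, had 7 of 61 higher and 5 lower, with a median of 0.52. That median was 0.925 without WT2 replicate 1 and 0.287 without replicate 2. Glyma.13G298600-1 rose in both droughts and more in the second, a difference of 3.36 ± 0.59 (SE). Glyma.11G035100-1 went from 185 and 237 units at DR1 to 15.6 and 13.1 at DR2, where it was dim, and its difference of -4.71 is -2.99 at its bound. Of 66 MYB factors, 7 (10.6%) were higher and 13 (19.7%) lower, with a median of -0.48. Both shares were near the 11.7% and 22.8% of all annotated transcripts. Glyma.04G042300-1, similar to MYB73, had 21.6 and 19.7 units at WT1, 178 and 145 at DR1, 42.4 and 19.4 at WT2 and 11414 and 9056 at DR2, a difference of 5.50 ± 0.51 (SE; adjusted p = 0.000406, limma) with WT1 dim and so without a bound. Glyma.08G059900-1, similar to MYB102, was dim in no condition and differed by 4.69. Glyma.13G333200-1, similar to MYB111, an activator of flavonol synthesis in Arabidopsis, fell to 17.8 and 76.1 units at DR2 from 3977 and 4406 at WT2, and differed by -4.19. Its value on DR2 replicate 1 was under the floor, so the size of this difference is uncertain.

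Of the 20 lists, those of photosynthesis had the largest shares lower in the second response. All 8 transcripts of chlorophyll and tetrapyrrole synthesis, 27 of 29 photosystem and electron transport transcripts and 12 of 13 light-harvesting transcripts were lower, and 0 of the 50 were higher. The medians were -3.54, -3.41 and -4.09, and changed to between -3.48 and -4.11 without WT2 replicate 1 and between -3.38 and -4.07 without replicate 2.

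Light-harvesting proteins bind the chlorophyll that collects light. Glyma.05G119000-1, similar to LHCB6, an antenna protein of photosystem II, had 153276 and 125117 units on the WT1 arrays, 31269 and 37863 on the DR1 arrays, 116201 and 103303 on the WT2 arrays and 696 and 596 on the DR2 arrays. The WT2 arrays lay just below the WT1 arrays, the DR1 arrays below both watered groups and both DR2 arrays far below those. The difference was -5.40 ± 0.33 (SE; adjusted p = 0.000147, limma), from changes of -2.01 and -7.41. The other called antenna transcripts ranged from -5.39 in Glyma.16G165500-1, similar to LHCB1, to -2.43 in Glyma.16G165200-1, of the same kind.

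Among the photosystem transcripts Glyma.09G073900-1, which encodes PsbX, a small subunit of photosystem II, had 198541 and 183320 units at WT1, 151350.3 and 197290.3 at WT2, and 1129 and 692 at DR2. It was not called at DR1, where it had 63556 and 66502 units, and differed by -6.06 ± 0.40 (SE; adjusted p = 0.000153, limma). Glyma.20G008600-1 and Glyma.07G163600-1, both PetM subunits of the cytochrome b6f complex, which passes electrons between the photosystems, differed by -5.71 and -5.49. Glyma.20G144700-1, the ferredoxin-docking PsaD subunit of photosystem I, differed by -5.44 although its change at the first drought was -0.85.

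In chlorophyll synthesis Glyma.12G222200-1, similar to PORA, the light-dependent protochlorophyllide reductase, had 99684 and 99237 units at WT1, 20676 and 23314 at DR1, 99838 and 103116 at WT2 and 599.8 and 526 at DR2. All 4 watered arrays lay between 99237 and 103116 units, and the difference was -5.32 ± 0.29 (SE; adjusted p = 0.000119, limma). Glyma.14G185700-1, similar to HEMA1, whose product makes the first dedicated precursor of tetrapyrroles, differed by -4.85, and Glyma.05G200500-1, similar to the methyltransferase CHLM, by -3.44. Of 4 transcripts for RuBisCO small subunits and the Calvin cycle, 3 were lower. Glyma.11G227100-1, similar to sedoheptulose-bisphosphatase, differed by -3.10 ± 0.32 (SE), while both RbcS transcripts called lower were dim at DR2. Glyma.08G365300-1 differed by -2.93 as fitted and by -2.47 at its bound, and Glyma.18G182200-1 by -2.89 and by -1.25, under 4-fold. The median of the 4 was -2.91 in the table and -1.36 from the scanner signal.

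Few transcripts encoded in the organelles were called. Of 83 plastid-encoded transcripts, which include core subunits of the photosystems, 8 (9.64%) were lower and 0 higher, near the 10.0% lower among all transcripts, with a median of -1.06 that was -0.40 with 75th-percentile scaling, where the median of all transcripts was 0.279. psbM, a photosystem II subunit, had 56806 and 44372 units at WT1, 29083 and 26818 at DR1, 35578 and 43436 at WT2 and 2223 and 1980.4 at DR2 and differed by -3.38 ± 0.33 (SE; adjusted p = 0.000452, limma). atpB of the ATP synthase differed by -2.70 and rbcL, the RuBisCO large subunit, by -2.37. Of 72 mitochondrion-encoded transcripts, 5 (6.94%) were higher and 0 lower, near the 7.32% higher among all transcripts, with a median of 1.22, and the number higher was 4 without WT2 replicate 1 and 1 without replicate 2. atp9, a subunit of the mitochondrial ATP synthase, led with 3103 and 3431 units at WT1, 6151 and 6044 at DR1, 2725 and 1903 at WT2 and 116143 and 28405 at DR2, a difference of 3.75 ± 0.80 (SE). Its DR2 arrays were above all others, with replicate 1 far above replicate 2.

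Of 26 aquaporins, the water channels, 10 (38.5%) were lower, 0 were higher and 16 were not called, with a median of -1.23. At the first drought 21 of the 26 had been called down and 3 up. Glyma.12G097800-1, similar to SIP1;1, went from 3372 and 5238 units at WT2 to 54.2 and 50.4 at DR2, and differed by -3.89 ± 0.36 (SE; adjusted p = 0.000404, limma). The tonoplast channels Glyma.11G034000-1 and Glyma.03G185900-1 differed by -2.90 and -2.53. Of 36 auxin-responsive and GASA transcripts, 16 (44.4%) were lower, 1 was higher and 19 were not called, with a median of -1.82. At the first drought 21 of the 36 had been called down and 7 up. The number higher was 2 without WT2 replicate 2. Glyma.06G185300-1, of the gibberellin-regulated GASA family of small peptides, had 57457 and 41124 units at WT1, 8665 and 9232 at DR1, 27242 and 39149 at WT2 and 185 and 193 at DR2, a difference of -4.99 ± 0.38 (SE). Both IAA14-like repressors of auxin signalling, Glyma.10G180100-1 and Glyma.20G210400-1, were lower, at -3.30 and -3.05, whereas the IAA26-like Glyma.07G015200-1 was higher at 2.64.

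Of 21 cell wall loosening transcripts, 19 had been called down and 2 up at the first drought. In the difference 5 (23.8%) were lower and 2 (9.52%) higher, near the shares of all annotated transcripts, with a median of -0.75. The number higher was 1 without either WT2 array. The expansin Glyma.04G222100-1, similar to EXPA8, fell to 799 and 974 units at DR1 and to 124 and 71.1 at DR2, a difference of -3.14. Another expansin, Glyma.06G195000-1, fell to 76.1 and 69.7 units at DR1 but had 621 and 314 at DR2, and differed by 2.85 ± 0.46 (SE). Of 15 histone and cyclin transcripts 1 was higher, or 2 without WT2 replicate 1, and 1 was lower, and the median was 1.21. The histone H2A transcript Glyma.03G148100-1 fell from 390.0 and 401 units to 62.2 and 64.5 at the first drought and stood at 1321 and 586 units in the second, a difference of 3.15, whereas Glyma.13G306600-1, similar to cyclin CYCP2;1, was at -2.25.

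Storage and defence transcripts went both ways. Of 21 vegetative storage proteins, Kunitz inhibitors and lipoxygenases, 8 were higher and 9 lower, with the same counts without either WT2 array. The class B acid phosphatase family includes the vegetative storage proteins in which soybean leaves keep nitrogen, and 5 of its 7 transcripts were lower. Glyma.08G200100-1 had 13674 and 15357 units on the WT1 arrays, 68634 and 74568 on the DR1 arrays, 88285 and 93559 on the WT2 arrays and 5197 and 8662 on the DR2 arrays. WT2 was the highest group and DR2 the lowest, and the difference was -6.06 ± 0.39 (SE; adjusted p = 0.000153, limma), from a rise of 2.30 at the first drought and a change of -3.76 at the second. Glyma.07G014500-1 and Glyma.08G200000-1 of that family also rose at the first drought and fell at the second, with differences of -5.83 and -4.93. Kunitz inhibitors divided, with 3 of 9 higher and 4 lower, from 8.75 in Glyma.08G235400-1 to -4.79 in Glyma.08G341700-1. All 5 lipoxygenase entries, enzymes that start the path to jasmonate, were higher, between 2.33 in Glyma.13G030300-1 and 2.70 in Glyma.20G234400-1. Of the 3 loci behind them, 1 had risen at the first drought and 2 had fallen.

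The transcripts that the study had tested by qRT-PCR were chosen on these samples, so they are a description here. Of 9, 4 were called, all higher. Osmotin-like Glyma.11G025600-1, of the thaumatin family of defence proteins, had 12.2 and 15.2 units at WT1, 52.7 and 61.9 at DR1, 18.8 and 13.3 at WT2 and 9597 and 3702 at DR2. It was dim at WT1 and WT2 and differed by 6.49 ± 0.60 (SE) without a bound, while DR2 lay 6.71 above DR1. The MYB73-like Glyma.04G042300-1 is given above. The WRKY40-like Glyma.06G061900-1 differed by 2.76, without a bound since WT1 was dim, and by 3.37 without WT2 replicate 1 and 2.15 without replicate 2. The seed maturation protein Glyma.U018200-1 differed by 3.73. Its values on replicate 2 of both watered groups, 10.78 units at WT1 and 17.27 at WT2, were under the floor, so this size is uncertain.

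Of the other 5, several turned on the choice of watered array. RD26-like Glyma.12G149100-1, whose Arabidopsis equivalent is a drought-induced NAC activator, had 145 and 103 units at WT1, 11542 and 8280.1 at DR1, 1359 and 53.5 at WT2 and 180854 and 190767 at DR2. WT2 replicate 1 lay well above the WT1 arrays and replicate 2 below them, and the difference of 3.11 ± 1.70 (SE; adjusted p = 0.181, limma) was 5.44 without replicate 1 and 0.77 without replicate 2. The LEA group 1 transcript Glyma.03G144400-1 had 8535 units on WT2 replicate 1 and 57.3 on replicate 2, and its difference of -2.41 (adjusted p = 0.49, limma) was 1.2 and -6.02 without them. The negative control, the phosphatase Glyma.14G162100-1, stood at -2.23, with -0.50 and -3.95 without either array. The phosphatase Glyma.12G116800-1 at 1.73 and the DREB1A-like Glyma.20G155100-1 at 1.90 kept their sign without either WT2 array and were not called, the latter being dim at WT1 and so without a bound. By the study's own comparison, DR2 lay above DR1 by 4.25 in Glyma.12G149100-1, 3.17 in Glyma.12G116800-1 and 2.49 in Glyma.20G155100-1. It lay 2.03 above DR1 in Glyma.03G144400-1 and 0.40 above it in Glyma.14G162100-1, the negative control.

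The array measured several transcripts of 9162 of its 47186 loci, and 2172 of these had at least 1 call. In 897 loci 2 or more transcripts were called in the same direction, and in 6 loci they were called in both. Glyma.03G115300-1 differed by -4.17 and Glyma.03G115300-2 from the same locus by 2.52. The unique-exon entry Glyma.03G115300-1_UE followed the former at -3.67. For Glyma.12G071700-1 the transcript stood at -2.17 and its unique-exon entry Glyma.12G071700-1_UE at 5.89. The other loci with opposite calls were Glyma.10G029000, Glyma.14G006100, Glyma.14G143700 and Glyma.16G038300. All 6 are named here because of these values.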

How the data were processed

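RNA of 8 leaf samples was hybridised to single-colour Agilent arrays, read with Feature Extraction 11.5.1.1. The authors deposited a table of intensities for 60386 transcripts, after background correction and normalization between the arrays in limma. The settings, and how the probes of a transcript were combined, are not given in the sources used here. Per the file headers, the array files hold spot and background intensities and detection calls, from which dim conditions and the scanner alternatives were taken.

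The log2 of the table was fitted with limma 3.58.1 in R 4.3.3 (lmFit, contrasts.fit, eBayes) with a mean for each of 4 conditions, and p was adjusted by Benjamini-Hochberg over all 60386 transcripts. SE are from this fit. The replicates were stated to be independent biological ones, and 2 arrays per condition limit the precision. In simulated data for the difference between the responses, 96 of 200 transcripts changed by 3 on the log2 scale were called with 2 false calls, and 138 of 200 changed by 4 with 4 false calls. The simulation gave each transcript the same spread in all conditions and changed few transcripts. In the data the spread differed between conditions and 10457 differences were called, so these rates need not hold there.

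Differences at a dim condition were bounded by setting each value of that condition under the floor of its array to that floor, the lowest value among transcripts with every probe well above background. Named transcripts are the 6 highest and 6 lowest differences measured in all conditions and kept without each WT2 array, the leading one of each class of calls and of each gene list, and the 9 that the study tested by qRT-PCR. Others were named after their values were seen. The members and the lists were chosen with earlier results of these data known. Lists were to use descriptions in the files or RefSeq, which matched 0 nuclear transcripts, so domain names and Arabidopsis equivalents came from the study's supplementary tables, covering 3755 transcripts (6.22%). Of the 22 lists, those for cytosolic and plastid ribosomal proteins had no member, and 155 organelle transcripts were named through RefSeq (Glycine_max_v4.0). Alternatives covered left-out arrays, background, scaling, low values, variance models, thresholds and the replicate number as a block.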

Additional observations from a re-analysis of the deposited data

Results flagged for a closer look

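Each value here is a difference between the first and the second drought response for which limma's test of the difference itself passed. There were 4420 transcripts higher and 6037 lower in the second response, and the 49 named ones follow, each with its fitted log2 difference.

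In the direction of a higher second response, named transcripts called up in both droughts differed by 8.75 for Glyma.08G235400-1, 8.23 for Glyma.08G235300-1, 6.49 for Glyma.11G025600-1, 5.50 for Glyma.04G042300-1, 3.84 for Glyma.11G180800-1, 3.84 for Glyma.14G195200-1, 3.73 for Glyma.U018200-1, 3.36 for Glyma.13G298600-1, 2.93 for Glyma.07G229100-1, 2.89 for Glyma.04G061300-1, 2.76 for Glyma.06G061900-1 and 2.64 for Glyma.07G015200-1. Those called up in the second drought alone differed by 9.68 for Glyma.04G035000-1, 8.98 for Glyma.15G211500-1, 8.31 for Glyma.02G020900-1, 7.71 for Glyma.10G045400-1, 6.38 for Glyma.19G198700-1, 4.10 for Glyma.04G119700-1 and 3.75 for atp9. That called in neither drought differed by 3.71 for Glyma.15G258800-1. That called down in the first and up in the second differed by 6.45 for Glyma.20G077900-1. Those called down in the first drought alone differed by 4.93 for Glyma.01G093800-1, 3.15 for Glyma.03G148100-1 and 2.85 for Glyma.06G195000-1. That called down in both droughts differed by 2.43 for Glyma.14G195000-1.

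In the direction of a lower second response, named transcripts called up in both droughts differed by -3.04 for Glyma.12G205700-1. Those called up in the first drought alone differed by -7.03 for Glyma.07G015600-1, -5.65 for Glyma.03G261400-1, -5.29 for Glyma.18G094600-1 and -4.71 for Glyma.11G035100-1. Those called up in the first and down in the second differed by -7.43 for Glyma.05G056300-1, -6.98 for Glyma.01G211000-1, -6.80 for Glyma.14G038300-1 and -6.06 for Glyma.08G200100-1. That called in neither drought differed by -3.72 for Glyma.02G229900-1. Those called down in the second drought alone differed by -7.08 for Glyma.08G295500-1, -6.83 for Glyma.17G153900-1, -6.06 for Glyma.09G073900-1 and -3.38 for psbM. Those called down in both droughts differed by -5.71 for Glyma.20G008600-1, -5.40 for Glyma.05G119000-1, -5.32 for Glyma.12G222200-1, -4.99 for Glyma.06G185300-1, -4.19 for Glyma.13G333200-1, -3.89 for Glyma.12G097800-1, -3.55 for Glyma.15G052300-2, -3.14 for Glyma.04G222100-1, -3.10 for Glyma.11G227100-1 and -2.25 for Glyma.13G306600-1.

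Conditions of 2 arrays allow no test for a single deviating array. Replicate arrays lay far apart for some of these, among them WT2 for Glyma.03G261400-1 and DR2 for Glyma.07G015600-1. The share of detected probes was lower at DR2, and its part in these values was not tested, while slide and plant age cannot be told apart from the second cycle.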

How the results depend on the processing

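Across the alternatives run, 0 transcripts were called in the opposite direction. Testing against a 4-fold difference with limma's treat gave 528 higher and 831 lower, a 2-fold threshold 10485 and 12219, an offset of 50 before the log 2513 and 3344, and a difference past 4-fold in both replicate numbers 2934 higher. Restricting the test to the 40137 transcripts detected in all 4 conditions left 3818 lower. Leaving out each array in turn gave 3813 to 6008 higher and 5371 to 7273 lower, the highest counts without DR2 replicate 2. Same-numbered arrays were not taken as pairs, since their deviations had correlations from -0.266 to 0.219, and with the number as a replicate block 4426 were higher and 6045 lower. The processed signal scaled to the 75th percentile gave 6200 and 7370, and 24 called transcripts turned sign under that scaling, as did 24 with normexp values scaled likewise and 4 with scanner signal and quantile normalization. Of the 49 named transcripts called, 25 were called under each of the 20 or 21 alternatives in which they were tested and 0 turned sign. Glyma.03G144400-1, which was not called, had -2.41 on all arrays, 1.2 without WT2 replicate 1 and -6.02 without replicate 2. Fitting each slide alone gave 2157 and 2376 calls at DR1 against WT1 and 7588 and 8976 at DR2 against WT2. With 2 arrays per condition and signals near background at DR2, a difference that was not called may still exist.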

Other observations

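Some domain families outside the gene lists were picked out because of their values, so the counts are a description without a test, to be read beside the 11.7% higher and 22.8% lower among all annotated transcripts. Proteins with the CYSTM domain, short cysteine-rich membrane-associated proteins linked to stress tolerance, were all called up in both droughts, and 9 of 10 entries were higher in the second response, with a median difference of 3.82. Glyma.08G172300-1 had 609 and 572 units at WT1, 3295 and 2149.7 at DR1, 656 and 524 at WT2 and 153240.0 and 100941 at DR2. The DR1 arrays lay above the watered arrays and both DR2 arrays far above those, a difference of 5.56 ± 0.43 (SE). Of 8 transcripts with the Senescence_reg domain, named after senescence regulators of the S40 kind, 5 were higher and 0 lower, with a median of 3.25. Glyma.15G089600-1 of this family had 49.1 and 59.95 units at WT1, 362 and 233 at DR1, 77.9 and 58.4 at WT2 and 22279.9 and 21204 at DR2, a difference of 5.91 ± 0.40 (SE). Neither count of higher entries changed without WT2 replicate 1 or without replicate 2.

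All 13 Rhodanese-domain entries were lower, with a median of -3.14. Glyma.04G232400-1 had the lowest value at -5.66, and the 4 entries at 2 loci similar to CaS, the calcium-sensing protein of thylakoids, lay between -3.41 in Glyma.05G016000-1 and -2.24 in Glyma.17G084300-2. PsbP-like proteins, which belong to the oxygen-evolving side of photosystem II, were lower in 8 of 8 cases, with a median of -3.26. Inositol-3-phosphate synthases, which make the first intermediate of inositol, went another way. Their median change was 2.74 at the first drought and 0.175 at the second, and 6 of 9 entries were lower in the difference. The median difference of -3.1 was -2.36 without WT2 replicate 1 and -3.85 without replicate 2. Glyma.18G018600-1 of that family had 6495 and 8620.0 units at WT1, 112128 and 104977 at DR1, 26532 and 6871 at WT2 and 15975 and 14544 at DR2, and only WT2 replicate 1 stood apart from the watered arrays. Its difference was -2.71 without that array and -4.66 without WT2 replicate 2.

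Other families were divided. Thaumatin-domain transcripts had 4 of 8 higher, 1 lower and 3 not called, from -2.27 to 6.49, and 3 lower without WT2 replicate 2. Besides the osmotin-like Glyma.11G025600-1, the higher ones had fallen at the first drought, as Glyma.05G204800-1 did with a change of -2.29 and then 1.49, not called, at the second. TIR-domain transcripts, a domain of disease resistance proteins, had 4 of 8 higher and 0 lower, and mitochondrial carriers 4 of 9 higher and 0 lower, from -1.96 to 3.80. Tubulins had 4 of 8 lower and 0 higher, and transcripts with the Hydrophob_seed domain of lipid-transfer-like proteins had 11 of 17 lower and 1 higher.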
